A study of Mus musculus with 23 samples.

Results

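Offspring of immune-activated dams (MIA) and control offspring (CON) were compared as adults after a saline injection alone, to see whether prenatal immune activation had left a trace in the open chromatin of unchallenged microglia. Of the 23 ATAC-seq libraries of the series, 11 were used for this comparison, all 6 labelled MIA_SAL and all 5 labelled CON_SAL, chosen by their labels and not by any measured value. The 5 MIA_LPS and 7 CON_LPS libraries, from mice injected with lipopolysaccharide (LPS, a bacterial cell wall component) at 4500 endotoxin units per gram, served as a reference. All mice were males of 8 to 10 weeks, and microglia were sorted from the pooled striatum 18 hours after the injection as live CD11b+, CD45-low and P2RY12+ cells. The saline groups differ in the labels in the prenatal treatment, in identity numbers, of which they share none, and in the numbers of sorted cells of single libraries. For the dams, neither the agent nor its day is given in the sources used here, nor are strain and genotype of the mice. Whether each library stems from its own animal or litter is not stated in the labels, so a p-value reflects only how far these libraries spread, and part of that spread may be technical.

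Microglia are the resident macrophages of the brain. They keep their identity through a set of transcription factors that need PU.1 and respond to TGF-beta, and they meet bacterial products through the receptor TLR4. Maternal immune activation exposes the fetus to cytokines of the dam at a stage when microglia already populate the brain, and it is used as a model of risk for neurodevelopmental disorders. In ATAC-seq the transposase Tn5 cuts accessible DNA, so a peak marks a promoter or enhancer that was open in the cells collected.

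A peak list holds no read counts. The comparison therefore asked 2 things of each stretch of the genome: in how many libraries a peak was present, and how high that peak stood within its own list. Each list was shortened to the same number of peaks, those with the highest −log10 p, just under the 33939 of the shortest of the 23 lists, and overlapping peaks of the 11 lists were merged into 59177 intervals with a median length of 299 bp. An interval with a peak in a library is called open there. All 11 libraries were open in 18337 intervals, 22799 were open in 2 to 10 libraries and 18041 in 1 library only. Of the intervals open in all 11 libraries 41.5% touched a promoter window of a protein-coding gene, against 4.37% of the others. The rank percentile of a peak is 100 for the strongest of its list and near 0 for the weakest. Differences of ranks were tested as normal scores, that is, ranks placed on the scale of a standard normal distribution.

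The sequences of 7 promoters are shown as examples of places described below. One is the promoter with a peak in every MIA_SAL and no CON_SAL library (Zfp660). Others are some of the promoters among the intervals with the smallest unadjusted p for a rank difference in either direction (Prkcz, Ift46, Wbp11, Yipf4). The last are a pair that marks microglial identity (Cx3cr1, Sall1). Whether their motifs bear on any difference was not tested. Each is the run of 250 bases before the start of transcription, 5′ to 3′ on the gene's strand, from RefSeq on GRCm38.p6. Capitals mark the motifs found on either strand among 6 searched: PU.1 (GAGGAAGT), ETS (CCGGAAGT), AP-1 (TGANTCA), interferon response (a pair of GAAA spaced by 2 bases), the CCAAT box (CCAAT) and the GC box (GGGCGG).

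Zfp660, chr9:122902998-122903247, plus strand: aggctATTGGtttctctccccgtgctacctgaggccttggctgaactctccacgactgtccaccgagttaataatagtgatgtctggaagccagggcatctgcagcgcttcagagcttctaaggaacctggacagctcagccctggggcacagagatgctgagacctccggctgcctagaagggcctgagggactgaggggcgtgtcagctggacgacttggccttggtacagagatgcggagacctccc

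Prkcz, chr4:155361429-155361678, minus strand: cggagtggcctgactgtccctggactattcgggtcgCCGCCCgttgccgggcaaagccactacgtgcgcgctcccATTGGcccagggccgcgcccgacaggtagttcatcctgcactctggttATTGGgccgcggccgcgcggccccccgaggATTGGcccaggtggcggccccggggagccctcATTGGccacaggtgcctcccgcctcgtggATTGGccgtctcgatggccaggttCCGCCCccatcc

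Ift46, chr9:44772759-44773008, plus strand: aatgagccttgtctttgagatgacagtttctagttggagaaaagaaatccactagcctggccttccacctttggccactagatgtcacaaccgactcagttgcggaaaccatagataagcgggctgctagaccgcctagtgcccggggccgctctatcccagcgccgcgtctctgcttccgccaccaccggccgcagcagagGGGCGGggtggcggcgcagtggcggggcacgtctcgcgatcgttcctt

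Wbp11, chr6:136828217-136828466, minus strand: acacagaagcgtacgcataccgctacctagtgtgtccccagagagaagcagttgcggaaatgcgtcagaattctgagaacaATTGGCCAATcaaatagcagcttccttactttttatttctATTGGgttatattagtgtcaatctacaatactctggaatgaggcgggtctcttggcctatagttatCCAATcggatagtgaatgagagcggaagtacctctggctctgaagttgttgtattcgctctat

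Yipf4, chr17:74489243-74489492, plus strand: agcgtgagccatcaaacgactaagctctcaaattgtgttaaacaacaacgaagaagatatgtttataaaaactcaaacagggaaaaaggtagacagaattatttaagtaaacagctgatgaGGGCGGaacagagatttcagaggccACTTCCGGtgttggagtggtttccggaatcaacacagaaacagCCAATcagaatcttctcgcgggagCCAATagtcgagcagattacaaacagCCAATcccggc

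Cx3cr1, chr9:120068297-120068546, minus strand: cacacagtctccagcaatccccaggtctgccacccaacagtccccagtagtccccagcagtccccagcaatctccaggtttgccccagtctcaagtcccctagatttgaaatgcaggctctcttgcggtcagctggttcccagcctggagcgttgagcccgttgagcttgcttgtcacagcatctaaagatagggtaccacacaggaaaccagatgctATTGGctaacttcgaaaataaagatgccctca

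Sall1, chr8:89044163-89044412, minus strand: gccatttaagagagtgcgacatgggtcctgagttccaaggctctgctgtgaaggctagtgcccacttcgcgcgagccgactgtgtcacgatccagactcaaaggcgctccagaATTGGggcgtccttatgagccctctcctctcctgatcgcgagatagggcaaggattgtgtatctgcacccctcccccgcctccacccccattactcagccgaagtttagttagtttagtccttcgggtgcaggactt

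Prkcz held 5 CCAAT boxes and 2 GC boxes with 25 CpG dinucleotides, and Wbp11 held 4 CCAAT boxes, of which one pair lies head to head. Yipf4 held 1 ETS motif, 3 CCAAT boxes and 1 GC box, Ift46 held 1 GC box, and Zfp660, Cx3cr1 and Sall1 held 1 CCAAT box each. Over the same run of 250 bases before the start in 21045 promoter windows, 35.6% held a CCAAT box, 43.1% a GC box, 6.17% an AP-1 motif, 3.83% the ETS motif, 2.98% the interferon response motif and 2.25% the PU.1 motif. These are matches of letters only, and no PU.1, AP-1 or interferon response letters occur in the 7 windows.

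Before any comparison of the groups, 3 libraries stood apart from the other 8. CON_SAL 3, MIA_SAL 3 and MIA_SAL 4 carry the identity numbers 2, 3 and 3, whose meaning is not stated, and came from 10560, 12617 and 12500 sorted cells. Their median fold enrichments of 4.77, 4.86 and 4.93 were the lowest of the 11. They also had the most peaks at gene ends (39.6%, 40.3% and 39.4%) and the most peaks shared with no other library (3278, 4513 and 3221, against 433 to 1381 in the others). The number 9 is shared by MIA_SAL 1 and 5, and 13 by CON_SAL 4 and 5, so the 11 libraries carry 8 numbers, while n below counts libraries. At the other end, MIA_SAL 2, from 25000 cells, had 68298 deposited peaks and a median −log10 p of 57.2. Depth in reads is unknown for every library. Shared intervals, library values and ranks were also computed without the 3 libraries, and presence without each library in turn.

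The open chromatin was that of microglia in both groups. At the promoters of Cx3cr1 (the fractalkine receptor), Sall1 (a transcription factor of microglial identity), Siglech, Olfml3, Sparc, Tgfbr1, Mertk and Golm1 all 11 libraries were open, 8 of the 15 homeostatic genes with a promoter window. Between 80.0% and 93.3% of the 15 promoters were open in a CON_SAL library and between 66.7% and 93.3% in a MIA_SAL library. The promoters of monocyte and neutrophil genes (10 promoters, Ccr2 and S100a8 among them) and of lymphocyte genes (7 promoters) were open in 0 of 11 libraries. Outside these promoters, in the genes or within 20 kb of their ends, 9 and 11 intervals were open in all 11 libraries. Border-associated macrophage promoters were open in 0% to 28.6% of 7 promoters per CON_SAL library and 0% to 14.3% per MIA_SAL library. For neurons the shares were 0% to 9.09% and 0% to 18.2% of 11 promoters, with the dopamine receptor gene Drd1 open in 1 CON_SAL and 4 MIA_SAL libraries. Single promoters of other cells were open throughout, Slc1a3 of 8 astrocyte, Cnp of 6 oligodendrocyte and Flt1 and Kdr of 6 endothelial promoters. In such bulk samples, a change in the share of a cell type and a change of accessibility within each cell cannot be told apart.

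Shares of open intervals lay in the same range between and within the prenatal groups. A pair shared 67.6% ± 7.66 of the intervals open in either (SD, 30 pairs) when it joined MIA_SAL with CON_SAL, 68.1% ± 6.28 (10 pairs) within CON_SAL and 66.3% ± 8.20 (15 pairs) within MIA_SAL. The 27 pairs with at least 1 of the 3 libraries of identity numbers 2 and 3 shared 60.4% ± 2.68. Without those 3 libraries the shares were 74.0% ± 3.42 between groups (16 pairs), 72.5% ± 3.48 within CON_SAL (6 pairs) and 75.4% ± 2.86 within MIA_SAL (6 pairs). The highest share of all 55 pairs, 81.6%, joined CON_SAL 4 with MIA_SAL 2, both of 25000 cells. Pairs overlap in their libraries and are given without a test.

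**Figure D1:**
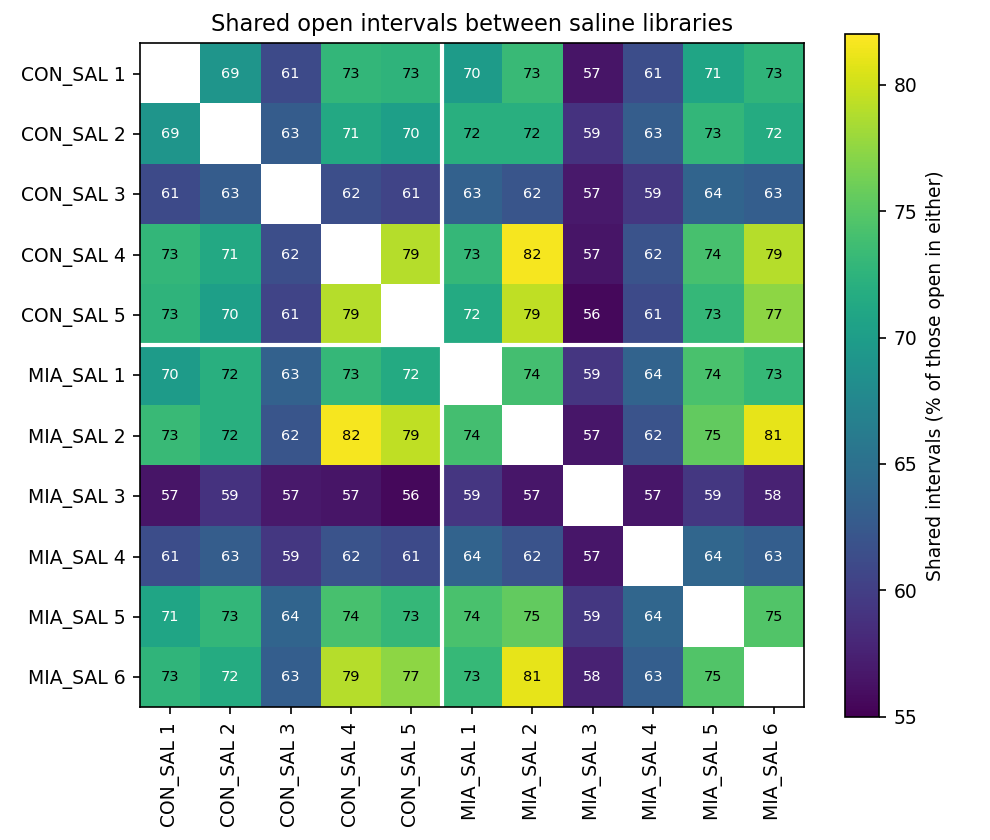
Percentage of open intervals shared by each pair of the 11 saline libraries, of those open in either; colour and the printed number give the same value, and white lines part CON_SAL from MIA_SAL. Rows of CON_SAL 3, MIA_SAL 3 and MIA_SAL 4 are low against both groups, and the highest value, 81.6%, lies between groups.

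No value of a whole library differed between the groups in an exact permutation test over all 462 regroupings of the 11 libraries. MIA_SAL had 46771 ± 12458 deposited peaks (SD, n = 6) and CON_SAL 43886 ± 6894 (n = 5, exact permutation p = 0.693). Median fold enrichment was 6.87 ± 2.36 and 6.12 ± 1.20 (exact permutation p = 0.619), and the median −log10 p was 23.7 ± 17.3 and 18.3 ± 7.05 (exact permutation p = 0.675). The share of peaks at gene ends was 36.3% ± 2.92 and 35.5% ± 2.92 (exact permutation p = 0.628). Peaks shared with no other library numbered 1766 ± 1696 and 1489 ± 1049 (exact permutation p = 0.835). Median peak width, the lowest −log10 p kept and the share of peaks in intervals open in all 11 libraries gave exact permutation p-values of 0.736, 0.688 and 0.701. Without MIA_SAL 2 the differences in deposited peaks, median fold and median −log10 p turned to −1421, −0.12 and −1.28, so that their direction rested on that library. Without MIA_SAL 3 the difference in peaks shared with no other library turned to −272. After Benjamini-Hochberg (BH) adjustment over the 9 values tested, every p was 0.918.

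The distance of unchallenged libraries from the LPS state also did not differ beyond their spread. An LPS score was computed as the percentage of LPS-gained intervals open in a library minus that of LPS-lost intervals, with intervals chosen from CON_LPS against the CON_SAL libraries other than the one scored. The 5 CON_SAL libraries scored −48.7, −36.5, −24.1, −54.1 and −61.2, and the 6 MIA_SAL libraries scored −39.3, −72.1, −16.1, −29.3, −45.1 and −60.6. The ranges overlapped along most of their length, and the 3 highest scores were those of CON_SAL 3, MIA_SAL 3 and MIA_SAL 4. Over the 11 libraries the score tended to be lower where peaks were stronger. The lowest and highest median −log10 p, 11.0 in MIA_SAL 3 and 57.2 in MIA_SAL 2, went with the highest and lowest score. How far the score follows peak strength was not tested. The means were −43.7 ± 20.4 in MIA_SAL (SD, n = 6) and −44.9 ± 14.7 in CON_SAL (n = 5, exact permutation p = 0.918). For scale, the 5 MIA_LPS libraries, which took no part in the choice, scored 75.4 ± 5.45. Without the 3 libraries the MIA_SAL mean was lower by 3.18 points (a difference of −3.18, exact permutation p = 0.771, n = 4 in each group).

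**Figure D2:**
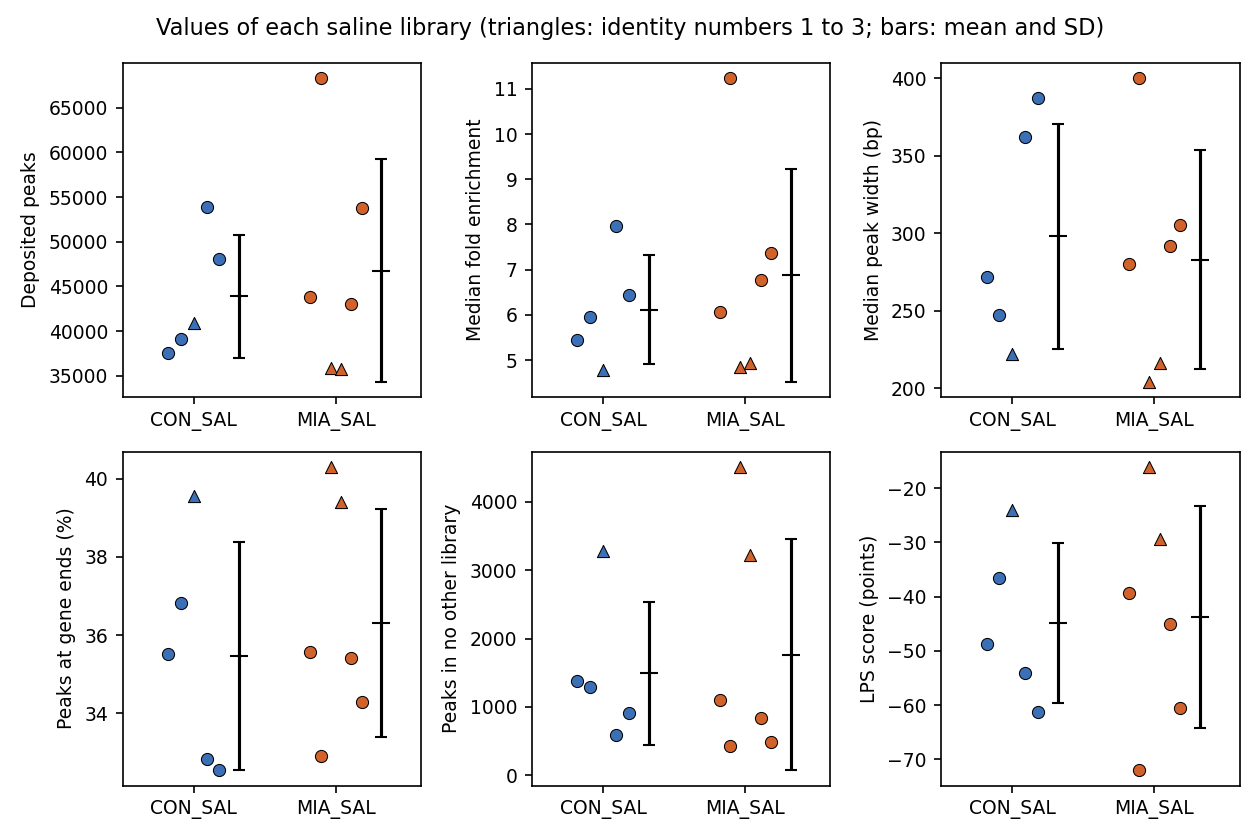
Values of each saline library by group: deposited peaks, median fold enrichment, median peak width in bp, percentage of peaks at gene ends, peaks shared with no other library, and LPS score in percentage points. Points are libraries, triangles are identity numbers 1 to 3, and bars give the mean and SD; the groups overlap in all 6 panels, and the triangles lie at one end of every panel but that of deposited peaks.

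Presence of a peak did not part the groups at any interval after adjustment. Of 3923 intervals open in 5 or 6 of the 11 libraries, the only numbers that let Fisher's exact test reach p = 0.01, 0 (0%) were called at a BH-adjusted p under 0.05, and every adjusted p was 1. No single interval could pass, since 170 completely separated ones would be needed for a call at this number of tests. At an unadjusted Fisher's exact p under 0.05 there were 33 (0.841%). Complete separation, with the smallest p that 6 against 5 libraries allow (Fisher's exact p = 0.00216), occurred at 3 intervals open only in MIA_SAL (0.0765%) and at 2 open only in CON_SAL (0.051%). A further 16 intervals were open in 5 of 6 MIA_SAL and 0 of 5 CON_SAL libraries, and 12 in 1 of 6 and 5 of 5 (Fisher's exact p = 0.0152). Between CON_LPS and CON_SAL, with 7 against 5 libraries, the same test called 620 of 4627 intervals (13.4%).

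The 3 intervals open in all MIA_SAL and no CON_SAL libraries lay at Zfp660, Itpkb and Gm31513. Zfp660 encodes a zinc finger protein, and its interval at chr9:122903125-122903452 covers the last 123 bases of the promoter shown above and the start of the gene. Its rank percentiles in MIA_SAL 1 to 6 were 9.86, 25.3, 30.3, 27.7, 4.42 and 4.14, all in the lower part of the lists. Among all deposited peaks, including the weaker ones cut off above, Zfp660 was open in all 6 MIA_SAL and in 1 CON_SAL library. After LPS the order was the other way, with 1 of 5 MIA_LPS and 4 of 7 CON_LPS libraries open. Itpkb encodes a kinase of inositol trisphosphate, and its interval at chr1:180427783-180428138 had percentiles of 0.791 to 20.7 in MIA_SAL. With all deposited peaks it was open in 6 of 6 and 3 of 5 libraries, and after LPS in 4 of 5 MIA_LPS and 5 of 7 CON_LPS libraries. The interval nearest to Gm31513, a predicted gene, lay at chr12:84195287-84195563 (percentiles 5.62 to 47.8, 6 of 6 and 2 of 5 with all deposited peaks, 2 of 5 MIA_LPS and 3 of 7 CON_LPS).

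Open only in CON_SAL were intervals at Azin1, an inhibitor of the antizyme that controls polyamine synthesis, and at F2r, the thrombin receptor PAR1. The Azin1 interval, chr15:38485567-38485860, stood at percentiles 37.5, 26.2, 40.7, 9.51 and 4.95 in CON_SAL 1 to 5. It was open in 2 of 6 MIA_SAL libraries with all deposited peaks, and after LPS in 1 of 5 MIA_LPS and 1 of 7 CON_LPS. The F2r interval, chr13:95563798-95563949, lay between genes, 37831 bp from the nearest gene end, and stood at 29.2, 20.6, 37.2, 11.3 and 11.2. It too was open in 2 of 6 MIA_SAL libraries with all deposited peaks, and after LPS in 2 of 5 and 4 of 7. All 5 separated intervals rested on peaks at a percentile of 47.8 or lower, and with all deposited peaks none of the 5 was open in one group only.

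Among the intervals open in 5 of 6 MIA_SAL and 0 of 5 CON_SAL libraries were those at Rac1, a GTPase of the actin cytoskeleton, at Srgap3 and Arhgap21, which switch such GTPases off, and at Klf9, a glucocorticoid-responsive transcription factor. The Srgap3 and Arhgap21 intervals lay 41042 and 46301 bp from the nearest gene end. Further named ones lay at Pkm (pyruvate kinase), Bbc3 (the apoptosis protein PUMA), Clk3 (a kinase of splicing factors), Shld1 (a DNA repair protein) and Syt8 (a synaptotagmin). With all deposited peaks the CON_SAL count rose to 4 of 5 libraries at Rac1, to 2 at Arhgap21, Klf9, Bbc3, Shld1 and Clk3, and to 1 at Pkm, Srgap3 and Syt8. The Pkm interval, chr9:59659851-59659984, was open in 4 of 5 MIA_LPS and 7 of 7 CON_LPS libraries. Open in 1 of 6 MIA_SAL and 5 of 5 CON_SAL libraries were intervals at Irf2, an interferon regulatory factor (chr8:46732622-46732971), and Vsig4, a complement receptor of tissue macrophages (chrX:96239655-96239964). The others named lay at the kinesin Kif16b, the splicing protein Tfip11, the SNARE Gosr2, the microtubule linker Clip2, the phosphatase Ptprm, Actrt3, Pramel1 and Gm28729. Those at Kif16b and Ptprm were 40294 and 49319 bp from the nearest gene end. With all deposited peaks Tfip11 was open in 6 of 6 MIA_SAL libraries, Ptprm and Gm28729 in 5, Kif16b, Gosr2 and Actrt3 in 4, Irf2 in 3, and Vsig4, Clip2 and Pramel1 in 2.

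Ranks gave the same picture over the intervals open in every library. limma called 0 of 18337 (0%) at a BH-adjusted p under 0.05, with a smallest adjusted p of 0.902, and 1003 (5.47%) had an unadjusted p under 0.05, 517 higher (2.82%) and 486 lower (2.65%) in MIA_SAL. For ranks of the fold enrichment limma called 0 (0%), with a smallest adjusted p of 0.999 and 659 (3.59%) at an unadjusted p under 0.05. The exact rank-sum test called 0 for either ranking, but it could not have called a single interval. Its smallest p, that of complete separation, was 0.00433 (exact rank-sum test), too large to pass adjustment over 18337 intervals unless very many were separated. For −log10 p 96 were separated, with a smallest adjusted p of 0.827 in this test, so its 0 calls add nothing to those of limma. With libraries of the same identity number averaged, limma called 0 and the share at an unadjusted p under 0.05 was 3.41% for −log10 p. The groups did not overlap at 51 intervals higher in MIA_SAL (0.278%) and 45 lower (0.245%). Half-widths of the 95% confidence intervals had a median of 0.27 normal scores. At 13717 intervals (74.8%) the confidence interval lay within ±0.5, so larger differences were outside it there, while at the rest the data did not bound the difference that closely.

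Large differences were fewer than those between LPS and saline. The median absolute difference between MIA_SAL and CON_SAL was 0.0998 normal scores over all intervals tested, and 207 intervals (1.13%) reached 0.5. Between CON_LPS and CON_SAL, which shares the CON_SAL libraries, it was 0.148 over all intervals tested, and 1455 (8.31%) reached 0.5. There the same model called 1201 of 17500 intervals (6.86%), 757 higher and 444 lower, and these calls had a median absolute difference of 0.63. Between MIA_LPS and CON_LPS limma called 0 of 18926 (0%), with 810 (4.28%) at an unadjusted p under 0.05, and Fisher's exact test on presence called 0 of 3585 (0%).

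**Figure D3:**
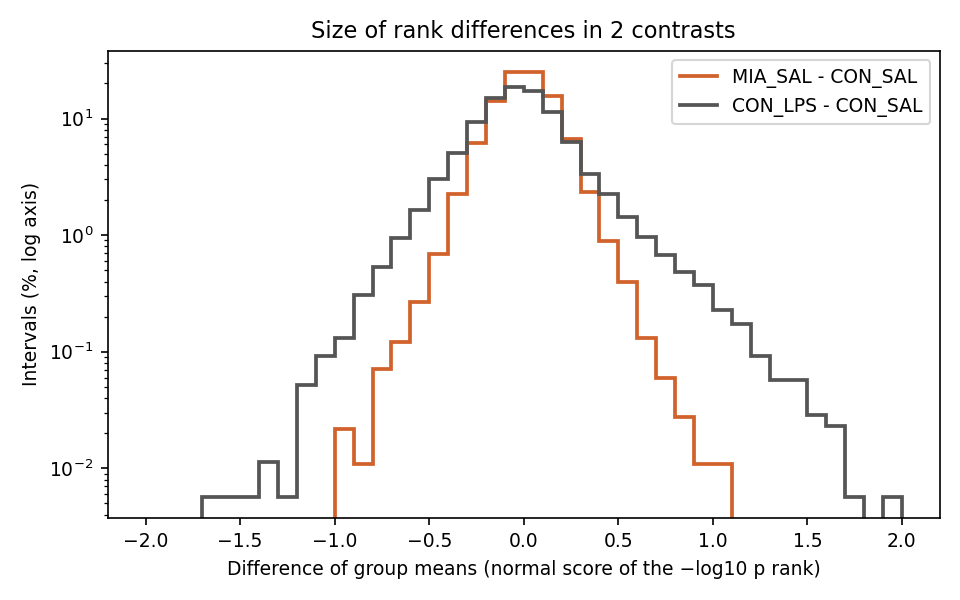
Distribution of the difference of group means per interval, in normal scores of the −log10 p rank, as a percentage of intervals on a log axis, for MIA_SAL minus CON_SAL and for CON_LPS minus CON_SAL. Few MIA differences reach 0.5 in size (1.13% of intervals, against 8.31% for LPS); both contrasts share the CON_SAL libraries.

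The intervals with the smallest unadjusted p are described by their values, since being chosen by that p fixes their direction and most of their separation, and all had an adjusted p of 0.902 in limma. The smallest was at H3c7, a histone H3 gene (chr13:23544253-23544552). It stood at percentiles 83.4, 79.5, 76.7, 85.7 and 86.7 in CON_SAL 1 to 5 and 64.6, 65.1, 66.4, 63.8, 70.3 and 74.4 in MIA_SAL 1 to 6. No MIA_SAL library reached the lowest CON_SAL library. The difference was −0.49 normal scores (95% CI −0.70 to −0.27). Histone genes have near-identical copies, so reads there may be shared with other members of the family. After LPS the MIA difference at this interval was −0.27 (95% CI −0.54 to 0.00).

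At the promoters shown above, the Wbp11 interval (chr6:136827635-136828600), which also holds the promoter of BC049715, stood among the strongest peaks of every library. Wbp11 encodes a protein of the splicing machinery. Its percentiles were 99.5, 98.4, 98.8, 97.9 and 98.6 in CON_SAL and 95.8, 94.5, 96.5, 93.5, 95.5 and 95.7 in MIA_SAL. The groups did not overlap, by 98.6 ± 0.567 against 95.2 ± 1.10 (SD), a difference of −0.56 normal scores (95% CI −0.82 to −0.30). Yipf4 encodes a membrane protein of the Golgi, and its interval (chr17:74489354-74489990) covers the last 139 bases of the sequence shown. It stood at 93.6, 90.7, 88.8, 92.6 and 92.2 in CON_SAL and 86.5, 86.7, 86.0, 75.6, 78.3 and 82.8 in MIA_SAL. Here too every MIA_SAL library was below every CON_SAL library, with a difference of −0.43 (95% CI −0.65 to −0.21). After LPS the MIA differences were 0.03 (95% CI −0.28 to 0.34) at Wbp11 and −0.08 (95% CI −0.34 to 0.17) at Yipf4.

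Higher in MIA_SAL were the promoters of Ift46 and Prkcz. Ift46 encodes a subunit of the intraflagellar transport complex of cilia (chr9:44772626-44773505). It stood at 84.4, 87.0, 86.8, 88.3 and 84.6 in CON_SAL and 91.2, 93.0, 93.3, 95.6, 93.9 and 92.9 in MIA_SAL, a difference of 0.41 (95% CI 0.21 to 0.62). Prkcz encodes the atypical protein kinase C zeta (chr4:155360966-155361738). It stood at 43.2, 43.4, 54.2, 35.0 and 56.1 in CON_SAL and 59.6, 65.5, 68.4, 72.1, 62.0 and 71.3 in MIA_SAL, a difference of 0.52 (95% CI 0.25 to 0.80). Neither pair of groups overlapped. After LPS the MIA difference was −0.18 (95% CI −0.42 to 0.07) at Ift46 and −0.03 (95% CI −0.51 to 0.45) at Prkcz.

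Further intervals higher in MIA_SAL lay at Marcks, an actin-binding substrate of protein kinase C (88.7 ± 1.94 against 80.6 ± 3.49, mean percentile ± SD). At Rnf128, a ubiquitin ligase, they were 80.3 ± 4.24 and 68.1 ± 5.35, and at Liph, a lipase, 72.1 ± 6.81 and 53.8 ± 7.54. Of the others, Sh2b2 (an adaptor of receptor signalling), Net1 (an activator of the GTPase RhoA) and Fnbp1 (a membrane-bending protein) had differences of 0.71, 0.66 and 0.84 with CON_SAL SDs of 10.8, 19.0 and 20.2 points, and Zfp568 and Abhd18 had 0.43 and 0.42. Lower in MIA_SAL were intervals at Kcnab3, a subunit of potassium channels (29.4 ± 8.65 against 56.5 ± 5.37), Gtf2f1, a subunit of the general transcription factor TFIIF (76.2 ± 6.56 against 87.6 ± 3.27), and Cdk5rap1, a tRNA-modifying enzyme (45.8 ± 4.54 against 65.3 ± 10.4). The intervals at the shared promoters of Dnaic1 with Fam219a and of Cfap61 with Crnkl1, and those at Dym and Tvp23b, had differences of −0.49, −0.40, −0.93 and −0.66. Without CON_SAL 3, MIA_SAL 3 and MIA_SAL 4 the difference fell in size to −0.49 at Dym and to 0.55 at Fnbp1.

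**Figure D4:**
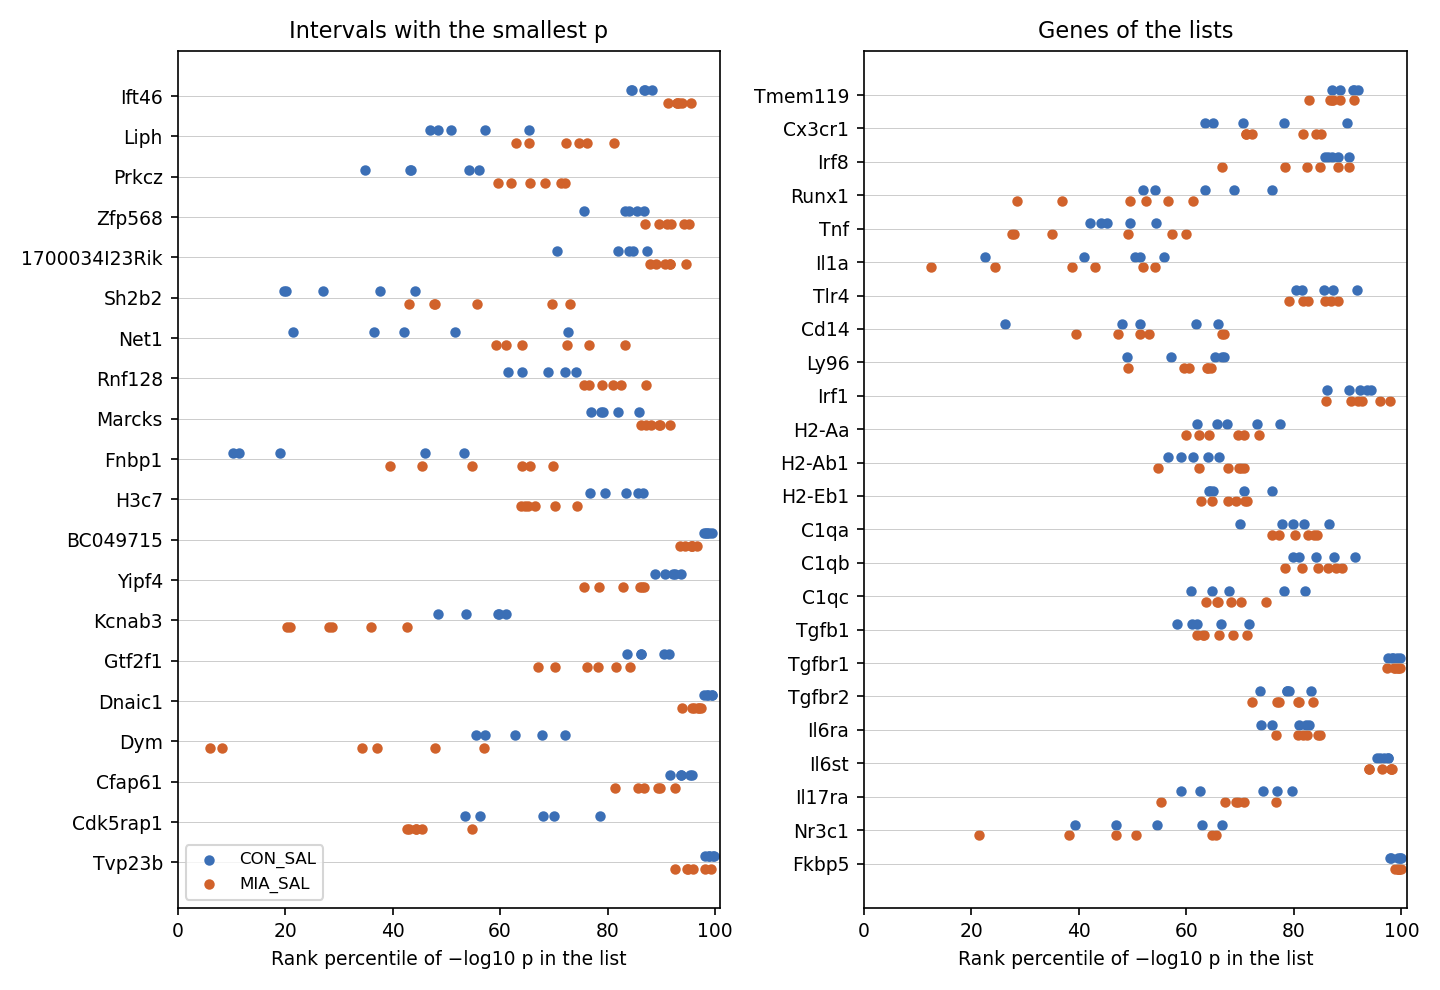
Rank percentile of −log10 p in each library (100 is the strongest peak of a list), for the 20 intervals with the smallest unadjusted p, left, and for intervals at genes of the lists that were open in all libraries, right; each point is a library. On the left the groups part or nearly part, for which the intervals were chosen, while on the right they overlap at every gene.

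The MIA differences after saline bore little relation to those after LPS, where other libraries carry the same prenatal labels. The saline and LPS contrasts share no library, although identity numbers 2, 3, 11, 14 and 15 occur in both. Over 15816 intervals open in all 23 libraries, the MIA difference after saline and that after LPS had r = 0.05 and rho = 0.05 across intervals, which are not independent. Their sign was the same at 52% of them. Of the 874 intervals with an unadjusted limma p under 0.05 after saline, 486 (55.6%) kept their sign after LPS. There 19 had the same sign and an unadjusted p under 0.05, and 14 the opposite sign. Their median absolute difference was 0.31 normal scores after saline, where they were chosen, and 0.10 after LPS.

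Of 19 named intervals open in all LPS libraries, 11 had the same sign after LPS. For presence, the 19 intervals open in more MIA_SAL libraries at a Fisher's exact p of 0.0152 or less had a larger share open in MIA_LPS at 8, a smaller one at 9 and an equal one at 2. The 14 intervals open in fewer had the same direction at 5, the opposite at 7 and an equal share at 2. The difference between the contrasts was tested as an interaction, and limma called 0 of 15962 intervals (0%), with a smallest adjusted p of 0.998 and 661 (4.14%) at an unadjusted p under 0.05.

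**Figure D5:**
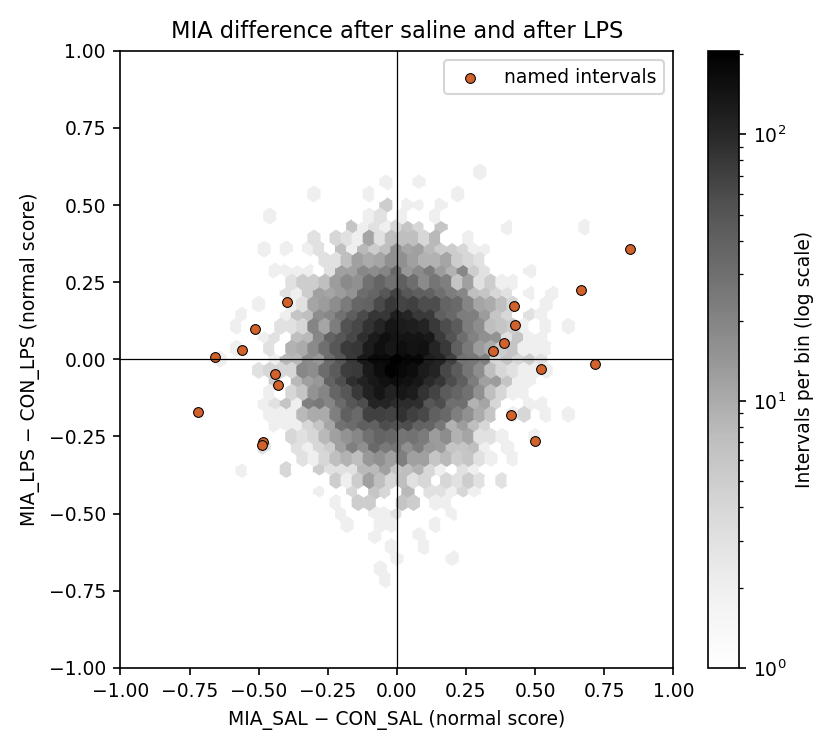
Difference of group means per interval, in normal scores of the −log10 p rank, MIA_SAL minus CON_SAL across and MIA_LPS minus CON_LPS up, for 15816 intervals open in all 23 libraries (1 lies outside the drawn range); grey gives the number of intervals per bin on a log scale and orange points are 19 named intervals. The cloud is round, and 11 of the orange points have the same sign on both axes.

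By position, 9106 of the tested intervals lay within 1 kb of a gene end, 5463 in gene bodies and 3768 between genes. Their median absolute differences were 0.09, 0.11 and 0.11 normal scores. At an unadjusted limma p under 0.05, gene ends had 212 higher and 272 lower, gene bodies 180 higher and 103 lower, and intervals between genes 125 higher and 111 lower in MIA_SAL. These shares of 5.32%, 5.18% and 6.26% stand beside 5.47% for all intervals.

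Genes of microglial identity had ranks that overlapped between the groups. The interval at Cx3cr1 stood at percentiles 63.5, 89.8, 64.9, 70.6 and 78.2 in CON_SAL and 84.1, 72.2, 71.1, 85.1, 81.7 and 71.2 in MIA_SAL, a difference of 0.11 (95% CI −0.19 to 0.41). For Tmem119, a membrane protein that marks microglia, CON_SAL libraries stood at 91.8, 91.0, 88.5, 91.2 and 87.0, and MIA_SAL libraries at 87.2, 82.8, 88.6, 86.6, 87.0 and 91.2 (−0.14, 95% CI −0.35 to 0.07). The gene of the purinergic receptor used in the sort, P2ry12, had a weak interval at its end (chr3:59262772-59263089), open in 3 of 5 CON_SAL and 5 of 6 MIA_SAL libraries at percentiles of 1.12 to 37.4. Over the 64 intervals of the 20 homeostatic genes open in all libraries, limma called 0, 4 were higher and 1 lower at an unadjusted p under 0.05 (7.81%, against 5.47% of all intervals, 2.82% higher and 2.65% lower), and the median difference was 0.05, against 0.00 over all intervals. Intervals of 1 gene share a locus and are not independent, here and in the lists below, whose counts of higher and lower intervals are also at an unadjusted p under 0.05.

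Among microglial and myeloid transcription factors, Runx1, which acts in macrophage development, had an interval at its end at 75.9, 54.2, 52, 63.5 and 68.9 in CON_SAL. MIA_SAL libraries stood at 61.2, 49.5, 28.5, 36.8, 56.6 and 52.6. The groups overlapped, and the difference was −0.41 (95% CI −0.75 to −0.07), with an unadjusted limma p of 0.021 that did not pass adjustment. The lowest Runx1 values were those of MIA_SAL 3 and 4, and without the 3 libraries of identity numbers 2 and 3 the difference was −0.29. Irf8, a partner of PU.1, stood at 85.9 to 90.2 in CON_SAL and 66.7 to 90.2 in MIA_SAL (−0.21, 95% CI −0.47 to 0.04). Its lowest values were those of MIA_SAL 3 and 4, and without the 3 libraries of identity numbers 2 and 3 the difference was −0.06. Of the 66 intervals of this list, 0 were called, with 3 higher and 2 lower (7.58%, against 5.47% of all intervals).

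Ranks at the genes that sense LPS overlapped between the groups. Tlr4 stood at 91.6, 85.7, 87.3, 80.4 and 81.4 in CON_SAL and 79.0, 82.6, 86.9, 85.8, 88.2 and 81.8 in MIA_SAL (−0.06, 95% CI −0.29 to 0.17). The co-receptor genes Cd14 and Ly96 had differences of 0.10 (95% CI −0.27 to 0.47) and −0.02 (95% CI −0.28 to 0.24). All 13 TLR4 signalling promoters with a window were open in every library. Limma called 0 of the 56 intervals of this list, with 2 higher and 2 lower (7.14%, against 5.47% of all intervals).

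Downstream of the receptor, the cytokine gene Tnf stood at 49.6, 45.2, 44.2, 42.1 and 54.4 in CON_SAL and 57.3, 60.0, 27.9, 35.1, 27.6 and 49.1 in MIA_SAL (−0.12, 95% CI −0.51 to 0.27). MIA_SAL was spread wider than CON_SAL and lay on both sides of it. Without the 3 libraries the difference was 0.01. The interval of Il1a ranged from 22.5 to 55.8 and from 12.5 to 54.1 (−0.20, 95% CI −0.69 to 0.29), and that nearest to an end of Il1b was open in 1 MIA_SAL library only. The NF-kB and acute inflammatory genes had 59 intervals, of which 0 were called, with 3 higher and 1 lower (6.78%, against 5.47% of all intervals). Interferon-stimulated genes had 3 higher and 1 lower of 28 (14.3%, 4 intervals), with Irf1 at 0.12 (95% CI −0.17 to 0.41) and Irf9 at −0.15 (95% CI −0.37 to 0.06). Irf7, a master factor of the interferon response, had an interval open in 3 CON_SAL and 2 MIA_SAL libraries.

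Cytokine receptors that have been studied in maternal immune activation had 0 of 69 intervals at an unadjusted p under 0.05 in either direction, and 0 called by limma. Il6ra and Il6st, which form the receptor of interleukin-6, had differences of 0.09 (95% CI −0.11 to 0.30) and 0.02 (95% CI −0.26 to 0.30), and Il17ra, a receptor subunit of interleukin-17, −0.07 (95% CI −0.34 to 0.19). TGF-beta signalling had 2 higher and 2 lower of 43 (9.30%, against 5.47% of all intervals). Its receptor genes Tgfbr1 and Tgfbr2 had differences of 0.05 (95% CI −0.32 to 0.43) and −0.00 (95% CI −0.21 to 0.21), and Tgfbr1 stood at 97.3 to 99.8 in all 11 libraries.

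Genes by which microglia present antigen and contact synapses overlapped as well. The class II genes H2-Aa, H2-Ab1 and H2-Eb1 had differences of −0.07, 0.12 and −0.01, and their list had 1 higher and 1 lower of 31 (6.45%, against 5.47% of all intervals) with a median difference of 0.10. The complement genes C1qa, C1qb and C1qc had differences of 0.04, −0.01 and −0.09, and 1 higher and 2 lower of 59 (5.08%) in their list. Disease-associated microglia genes had 2 higher and 0 lower of 42 (4.76%). At the first 3 genes of that list the interval nearest to a gene end was open in only some libraries, 3 CON_SAL and 1 MIA_SAL at Apoe, 1 and 3 at Lpl, and 3 and 6 at Cst7.

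Glucocorticoid response genes had 1 higher and 0 lower of 35 (2.86%, against 5.47% of all intervals, 2.82% higher and 2.65% lower). The receptor gene Nr3c1 differed by −0.17 (95% CI −0.57 to 0.23) and its target Fkbp5, at 97.9 to 99.9 in every library, by 0.07 (95% CI −0.35 to 0.49). Chromatin and DNA methylation regulators had 4 higher and 0 lower of 64 (6.25%, near the share of all intervals), with a median of 0.03 and with Dnmt3b, a DNA methyltransferase, at 0.19 (95% CI −0.05 to 0.42). Glycolysis and hypoxia genes had 4 higher and 0 lower of 41 (9.76%, against 5.47%), with a median of 0.06. Immediate early genes, which also rise when tissue is dissociated, had 2 higher and 2 lower of 77 (5.19%), with Fos at −0.04 and Jun at 0.03. Housekeeping genes had 1 higher and 2 lower of 31 (9.68%). Limma called 0 intervals in each of these lists, and Fisher's exact test called 0 of the 1 to 16 intervals tested for presence per list.

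Without CON_SAL 3, MIA_SAL 3 and MIA_SAL 4, limma called 0 of 22011 intervals, with a smallest adjusted p of 0.959 and 1047 (4.76%) at an unadjusted p under 0.05. All 20 named rank differences kept their sign there, from 0.27 at Rnf128 to 0.72 at Net1 and from −0.31 at Cfap61 to −0.86 at Kcnab3. They had been chosen by their p over all 11 libraries, of which the libraries kept are a part, so the sign was close to given. A p that misses the threshold does not show that the groups are alike, and the confidence intervals above give what these 11 libraries bound.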

How the data were processed

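Nuclei of sorted striatal microglia were profiled by ATAC-seq, and 1 list of peaks per library was deposited by the authors. The submitters' processing notes name MACS2, Bowtie2, cutadapt, DiffBind, Picard and SAMtools, with no role or order, with the builds GRCm38 and mm10. No version or option is given in the sources used here. No list carries a header line. Their values were read as the authors' fold enrichment (a ratio over the local background), −log10 p and −log10 q of each peak, which describe or rank peaks within a list. Longer or deeper libraries yield more peaks with higher −log10 p, so only chromosomes 1 to 19 and X and the best 33900 peaks by −log10 p were kept per list, which equalises length but not quality. Depth in reads is unknown.

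Peaks of the 11 saline lists were merged on any overlap, and the best peak of a library stood for an interval. Presence was tested with Fisher's exact test (two-sided), over intervals whose margin allows a p of 0.01 or less. Ranks were tested with limma 3.58.1 in R 4.3.3, with an intensity trend, on normal scores of the within-list rank, over intervals open in all 11 libraries, so no value was imputed. The interaction used all 23 libraries. Single library values had an exact permutation test (two-sided). A call is a BH-adjusted p under 0.05. For the LPS score, intervals were chosen whose share of open libraries differed by at least 0.75 between CON_LPS and 4 CON_SAL libraries, and a MIA_SAL library was scored by the mean over the 5 choices. Scripts were tested on simulated data.

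Genes, promoter windows (250 bases before to 50 after the start) and sequences came from RefSeq tables on GRCm38.p6, with 21631 protein-coding genes, of which 17274 had a promoter window. An interval was named by the gene with the nearest end within 100 kb, and belonged to a list gene within 20 kb of an end or in the gene. The intervals at Wbp11 and Abhd18 were instead named by a promoter they touch, with BC049715 and 1700034I23Rik as the genes of the nearest end. None of this shows that an interval controls the gene. Named were, in each direction, the 12 presence intervals with the smallest Fisher p and the 10 rank intervals with the smallest limma p, 1 per gene. From each list the first 3 genes with an interval were taken, and only some of them are described above. Spi1, Tgfb1, Hif1a, Slc2a1, Hk1, Actb and Tbp are among those left out. Of 348 entries in 22 lists, 346 matched by symbol, 1 by synonym and 1, Mx1, not at all. The libraries, lists and tests were chosen with earlier results of these data known. Replicate numbers of the labels did not pair the samples: deviations from the group means of same-numbered libraries had r between −0.21 and 0.14 across intervals.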

Additional observations from a re-analysis of the deposited data

Results flagged for a closer look

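Among 130 groups of values checked, the highest or lowest library lay far from the rest of its own group in 5, and chance alone would give about 1 in 20. MIA_SAL 2 had a median −log10 p of 57.2, where the next MIA_SAL library had 26.5, and its lowest −log10 p kept was 23.2, where the next had 11.3. At Cdk5rap1, MIA_SAL 6 stood at a rank percentile of 54.8 and the next MIA_SAL library at 45.4. At Ly96, the co-receptor of TLR4, MIA_SAL 3 stood at 49.2, below the next at 59.6. At Gapdh, a housekeeping gene, CON_SAL 5 stood at 25.9 and the next CON_SAL library at 54.9.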

How the results depend on the processing

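No interval was called in any setting run: 19 for presence (Fisher's exact, smallest BH-adjusted p 0.685 to 1), 24 each for ranks of −log10 p (0.261 to 0.997) and of fold (0.318 to 1, limma or exact rank-sum test), and 2 for the interaction (0.984 to 0.998). These covered other list lengths, the other ranking for shortening, a −log10 q of at least 5, fixed windows at summits, merging over 23 lists, absent peaks at the lowest rank, library weights, sorted cells or number of peaks as a term, shared identity numbers averaged, and each library left out. In the 19 presence settings the smallest Fisher's exact p was 0.00216 to 0.00794, over 1632 to 40840 intervals. A single separated interval could not pass adjustment in any of them. Their 0 calls, like those of the exact rank-sum test, therefore add little. Presence without identity numbers 1 to 3 was not run, since 4 against 4 libraries cannot go below a Fisher's exact p of 0.0286. The replicate block, for numbers that do not pair the samples (only number 3 correlated best with itself), called 0 intervals for either ranking, with 5.78% and 3.12% at an unadjusted p under 0.05. None of the 447 values of named rank differences and 412 of named presence differences was reversed. At Tfip11 the presence difference was gone with all deposited peaks, where 6 of 6 MIA_SAL and 5 of 5 CON_SAL libraries were open. Settings in which a named interval had no match gave no value for it. These intervals were chosen by their p in the same libraries, so keeping their direction was close to given. Of 770 values for list genes, 763 moved by less than 1 SD. Library values, none past an exact permutation test, changed sign as MIA_SAL minus CON_SAL with 1 library left out: deposited peaks −1421 to 5388, median fold −0.12 to 1.22, median −log10 p −1.28 to 8.03, lowest −log10 p kept −0.64 to 3.15, peak width −38.6 to 7.08 bp, peaks in no other library −272 to 725, share in intervals open in all libraries −0.12 to 1.92 points, and LPS score −4.53 to 8.91 points. The first 4 of these were negative only without MIA_SAL 2. Without identity numbers 1 to 3 the width differed by 2.25 bp, peaks in no other library by −326, the share by −0.31 points and the LPS score by −3.18. Within libraries of at least 20000 sorted cells, 2 against 2, the first 4 were 10090, 2.11, 16.3 and 6.38. Unknown depth limits all comparisons of weak peaks.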
